A study of Homo sapiens with 40 samples.

Results

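The genes described here were 45 named factors of ribosome assembly in the nucleolus and of RNA polymerase I. They were taken as a list by name, but with earlier results of these data known. Of the 45, 42 had a probe that the annotation used here names, and 41 were measured, out of 13740 measured genes in all. NPM1 was left out because its only named probe was detected on no array, and WDR43, GNL3 and EBNA1BP2 had no probe named here. The cells were those of established lines of human mantle cell lymphoma, a cancer of B cells, named GRANTA519, JEKO1, MAVER1 and REC1. Each line was exposed to OTX015, an inhibitor of the BET bromodomain proteins, or to DMSO as vehicle control, for 2, 4, 8, 12 or 24 h, and a single array was run per line, agent and time. This gave 20 OTX015 arrays and 20 matching DMSO arrays, in 10 groups of treatment and time whose replicates were the 4 lines. Neither the OTX015 concentration nor the handling of cultures between times is stated in the labels.

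Ribosomes are built mainly in the nucleolus, where RNA polymerase I transcribes the long precursor of the large ribosomal RNAs and a succession of assembly factors folds, modifies and cuts it. Small nucleolar ribonucleoproteins (snoRNPs) guide the chemical modification of the RNA, those of the box C/D class adding methyl groups and those of the box H/ACA class turning uridine into pseudouridine. MYC, a transcription factor that with its partner MAX binds the DNA sequence CACGTG (the E-box), is known as an activator of many of these genes, and BET proteins are known to support MYC transcription in many blood cancers.

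The arrays gave a median intensity between 95.57 and 125.6, against a background level of 89.2 to 113.2, and an array detected 35.3% to 46.8% of its 47231 probes. For all 40 arrays the best-correlated other array came from the same line. Of the B cell markers, CD79A and CD79B were detected on all 40 arrays and PAX5 was detected on none. Of 8 T and NK cell markers, none was detected on all arrays and 4 (CD3E, CD4, NKG7 and KLRD1) on none. Of 8 myeloid markers, none was detected on all arrays and S100A9 on none. The summed level of the T and NK cell markers ran from 26.6 to 1140 on OTX015 and from 27.0 to 1255 on DMSO arrays, and that of the myeloid markers from 41.2 to 272 on OTX015 and from 61.7 to 253 on DMSO arrays. The T cell marker CD3D had a median log2 signal of 4.29 on OTX015 and 4.34 on DMSO arrays. Its highest values were 10.13 and 10.26, in that order. Over all times, 4 of 5 measured B cell markers fell with OTX015 (median -0.52), against 14.4% of all genes. None of 2 T and NK cell or 4 myeloid markers passed the test over all times. Values below are differences in log2 signal, OTX015 minus DMSO at equal line and time, given as mean ± SD of the 4 line means (n = 4) unless said otherwise. A gene "fell" or "rose" where the adjusted p of limma, over all 13740 genes, was under 0.05. In bulk RNA, fewer cells of a kind and less RNA per cell cannot be told apart, and quantile normalization hides a change shared by all transcripts.

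Start-site sequence was read first, since CACGTG near a start is the feature that ties this pathway to MYC in textbooks. Promoter windows of 300 bases, 250 before and 50 after the start, were in the RefSeq table used here (GRCh38.p14) for 38 of the 45 genes, and 16 of the 38 held CACGTG (42.1%). The motif reads the same on both strands. Where a gene had several windows, only the first by chromosome and position was read. The motif stood in 7.28% of the 27305 promoters of that length kept this way, and in 9.43% of the 10788 promoters of measured genes. It was found in 5 of 16 members that fell over all times (31.3%) and in 9 of 18 measured members that did not (50%). A match is a description of letters, and no match says only that these letters are not in this window. Shown first are the 100 bases around the start (70 before it, and the first 30 transcribed) of 5 of the 6 members with the largest changes, none of which held the motif in its full window.
PPAN (chr19:10106153-10106252, plus strand): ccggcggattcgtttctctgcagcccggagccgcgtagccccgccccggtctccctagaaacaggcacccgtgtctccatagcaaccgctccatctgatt
PPRC1 (chr10:102132970-102133069, plus strand): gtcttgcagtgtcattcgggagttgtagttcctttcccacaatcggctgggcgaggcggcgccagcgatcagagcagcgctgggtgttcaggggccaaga
GAR1 (chr4:109815440-109815539, plus strand): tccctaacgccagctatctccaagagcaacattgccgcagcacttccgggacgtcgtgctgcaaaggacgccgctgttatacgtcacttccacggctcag
NOP16 (chr5:176388569-176388668, minus strand): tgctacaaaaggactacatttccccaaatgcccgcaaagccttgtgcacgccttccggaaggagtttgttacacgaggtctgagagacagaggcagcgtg
NOB1 (chr16:69754897-69754996, minus strand): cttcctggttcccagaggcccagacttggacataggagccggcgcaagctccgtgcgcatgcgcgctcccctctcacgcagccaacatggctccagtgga
Shown next, for contrast, are 3 members that fell and held the motif (MRTO4, LYAR and PES1), and 3 that held it and did not pass the test (FBL, GNL2 and RRP9). These 6 were chosen after their values were seen. Capitals mark CACGTG.
MRTO4 (chr1:19251735-19251834, plus strand): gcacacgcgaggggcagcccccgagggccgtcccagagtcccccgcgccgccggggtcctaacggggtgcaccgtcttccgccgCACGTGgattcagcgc
LYAR (chr4:4289992-4290091, minus strand): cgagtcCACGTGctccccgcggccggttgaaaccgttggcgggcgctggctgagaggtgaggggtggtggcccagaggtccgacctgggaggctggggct
PES1 (chr22:30591881-30591980, minus strand): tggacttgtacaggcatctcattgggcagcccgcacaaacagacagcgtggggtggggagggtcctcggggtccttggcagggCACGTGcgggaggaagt
FBL (chr19:39846350-39846449, minus strand): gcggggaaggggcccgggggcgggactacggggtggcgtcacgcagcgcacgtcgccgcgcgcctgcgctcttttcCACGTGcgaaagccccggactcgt
GNL2 (chr1:37595908-37596007, minus strand): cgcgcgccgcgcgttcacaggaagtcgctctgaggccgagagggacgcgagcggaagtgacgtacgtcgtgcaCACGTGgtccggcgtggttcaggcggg
RRP9 (chr3:51941875-51941974, minus strand): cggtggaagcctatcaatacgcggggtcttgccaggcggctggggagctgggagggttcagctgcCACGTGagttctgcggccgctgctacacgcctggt
The motif lay before the start in LYAR, across it in RRP9 and after it in MRTO4, PES1, FBL and GNL2. In the wider pathway it was in 15 of 38 promoters of other small subunit factors (39.5%) and in 11 of 43 of other large subunit factors (25.6%). It was in 1 of 12 promoters of other RNA polymerase I genes (8.33%), 1 of 8 of other snoRNP assembly genes (12.5%), 1 of 11 of RNA exosome genes (9.09%) and 3 of 63 of cytosolic ribosomal proteins (4.76%).

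The comparison over all times asked which of these genes differed between OTX015 and DMSO in the 4 lines irrespective of time. OTX015 lowered 18 of the 41 measured members, raised 1 (WDR74), and 22 did not pass the test. Among all measured genes 14.4% fell and 14.5% rose. The median change of the 41 was -0.19, against 0.0058 for all genes, and 36 of the 41 lay below 0. PPAN, RRS1 and NOP16 of the large subunit, the regulator PPRC1, the box H/ACA protein GAR1 and NOB1 of the small subunit had the largest changes, between 1.51-fold and 1.81-fold lower. The polymerase subunits POLR1A and POLR1B and the core proteins of box C/D snoRNPs did not pass. Without GRANTA519, 9 members passed in place of 19, and without MAVER1 10 did, each on 3 lines. Some calls were also lost under single alternatives: NOP14 in 6 of 12, TSR1 in 5, MAK16 in 4, PES1, DDX21 and WDR74 in 3 each, BYSL, WDR12 and LYAR in 2 each, and UTP15 in 1 of 11.

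**Figure D1:**
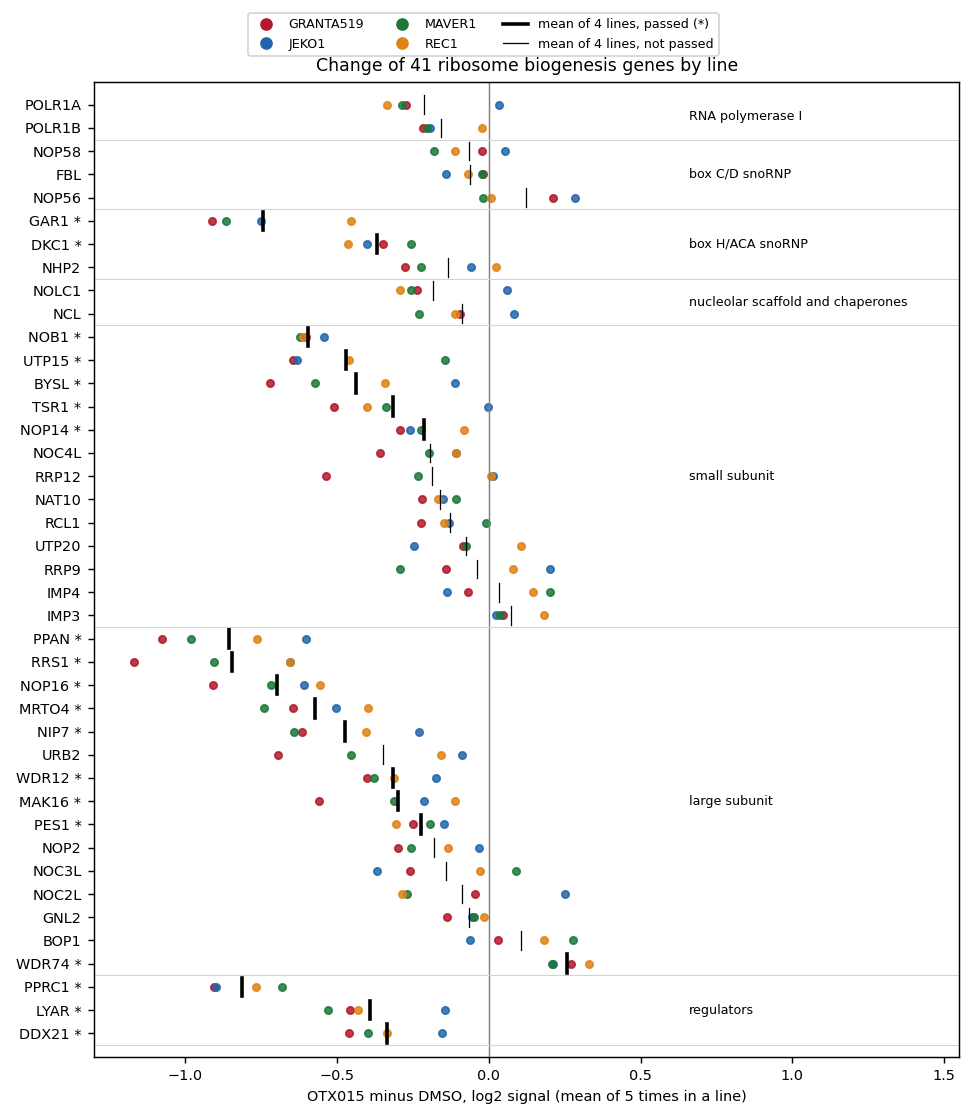
Change of each of the 41 measured genes (rows, grouped by role), OTX015 minus DMSO in log2 signal. Coloured points are the mean of 5 times in 1 of the 4 lines, the bar is the mean of the 4 lines, and thick bars with a star mark the 19 genes past an adjusted p of 0.05. PPAN, RRS1, PPRC1, GAR1, NOP16 and NOB1 lie left of 0 in all 4 lines, and WDR74 lies right of 0 in all 4.

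PPAN, a factor of large subunit assembly, had a log2 signal of 6.50 at the lowest, 7.28 at the median and 8.78 at the highest over the 20 OTX015 arrays, against 7.64, 8.08 and 9.51 over the 20 DMSO arrays. REC1 was the highest line in both arms, and within each of the 4 lines every OTX015 array lay below every DMSO array. PPAN fell by 0.86 ± 0.21 (1.81-fold lower, 95% interval -1.07 to -0.64, adjusted p = 0.00147), with lower signal in 20 of 20 pairs. In the deposited intensities, before any correction, the medians were 242 on OTX015 and 351 on DMSO arrays.

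RRS1, whose product helps bring the 5S ribonucleoprotein particle into the large subunit, ran from 6.57 over a median of 7.94 to 8.84 on OTX015 arrays, against 7.83, 8.97 and 9.34 on DMSO arrays. JEKO1 was the lowest line in both arms, and there alone the arms overlapped, through its 8 h OTX015 array. RRS1 fell by 0.84 ± 0.24 (1.80-fold lower, adjusted p = 0.0020). Its fall was uneven over time in JEKO1, with -1.61 at 2 h and -0.22 at 8 h, and even in GRANTA519, between -1.07 and -1.27.

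PPRC1, a coactivator related to PGC-1 that is known for its part in mitochondrial and growth programmes, ran from 8.08 over a median of 8.66 to 9.30 on OTX015 arrays, against 8.98, 9.46 and 10.37 on DMSO arrays. The arms did not overlap within any of the 4 lines. PPRC1 fell by 0.81 ± 0.11 (1.76-fold lower, adjusted p = 0.000784), and its line means were close to each other (-0.91 in GRANTA519, -0.90 in JEKO1, -0.68 in MAVER1 and -0.77 in REC1).

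GAR1, a core protein of box H/ACA snoRNPs, ran from 9.33 over a median of 10.05 to 10.60 on OTX015 arrays, against 10.39, 10.59 and 11.32 on DMSO arrays. Within REC1 the arms overlapped, and within the other 3 lines they did not. GAR1 fell by 0.74 ± 0.20 (1.68-fold lower, adjusted p = 0.0020). The smallest difference was that of REC1 at 2 h (-0.06), and its 4 probes gave changes between -0.62 and -0.74.

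NOP16, a large subunit factor, ran from 8.18 over a median of 8.77 to 9.34 on OTX015 arrays, against 9.18, 9.43 and 9.81 on DMSO arrays. Again the arms overlapped within REC1 and not within the other 3 lines. NOP16 fell by 0.70 ± 0.16 (1.62-fold lower, adjusted p = 0.00165), and its second probe gave -0.64.

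NOB1, the endonuclease that makes the final cut of the small subunit RNA, ran from 6.51 over a median of 7.16 to 7.58 on OTX015 arrays, against 7.32, 7.76 and 8.16 on DMSO arrays. The arms overlapped within REC1, where DMSO signals themselves were lowest, and not within the other 3 lines. NOB1 fell by 0.59 ± 0.04 (1.51-fold lower, adjusted p = 0.00124). Its line means lay between -0.54 and -0.62.

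**Figure D2:**
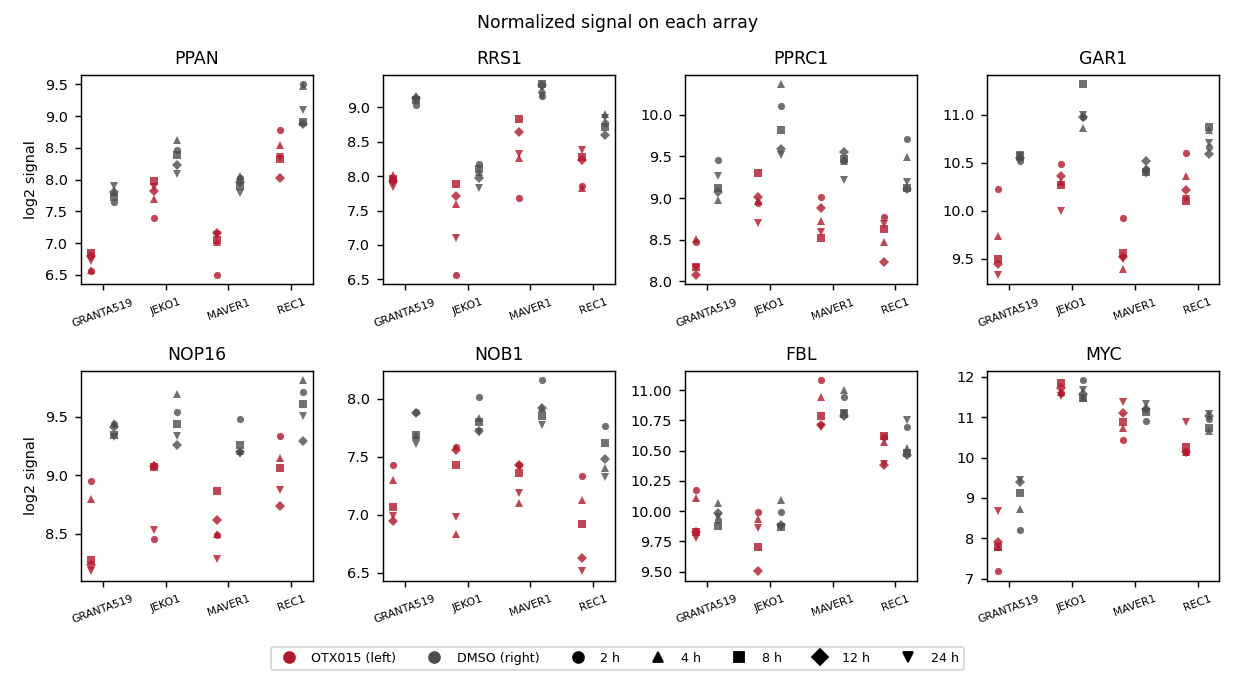
Normalized log2 signal on each of the 40 arrays for the 6 genes with the largest changes, for FBL and for MYC. OTX015 arrays (red) stand left of DMSO arrays (grey) in each line, and marker shapes give the time. PPAN and PPRC1 show no overlap of the arms in any of the 4 lines, FBL overlaps in all 4, and MYC is low in GRANTA519 in both arms.

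Neither measured RNA polymerase I member passed over all times. POLR1A, which encodes the largest subunit, ran from 4.75 over a median of 5.35 to 6.96 on OTX015 arrays, against 5.12, 5.62 and 6.53 on DMSO arrays. The arms overlapped in every line, the JEKO1 pair of 12 h ran opposite to the others (0.86), and the probe was dim, detected on 17 OTX015 and 20 DMSO arrays. The change was -0.21 ± 0.17 (adjusted p = 0.089). POLR1B, the second-largest subunit, ran from 5.99 over a median of 6.53 to 7.01 on OTX015 arrays, against 5.76, 6.65 and 7.21 on DMSO arrays. Again the arms overlapped in every line. Its change was -0.16 ± 0.09 (adjusted p = 0.114), with -0.18 from a second probe, and at 24 h alone it fell, by 0.40 (adjusted p = 0.0353).

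The 3 box C/D core proteins among the members did not pass, while 2 of the 3 box H/ACA members fell (14.4% of all genes fell). A further core protein of each class, SNU13 (box C/D) and NOP10 (box H/ACA), was counted with the other snoRNP assembly genes. Neither SNU13 nor NOP10 passed. FBL, the methyltransferase of the box C/D particle, had a median log2 signal of 10.28 on OTX015 and 10.28 on DMSO arrays, and changed by -0.06 ± 0.06 (95% interval -0.21 to 0.08, adjusted p = 0.484). NOP58 changed by -0.06 ± 0.10. NOP56, which with NOP58 forms the scaffold of the particle, gave 0.12 ± 0.15 (adjusted p = 0.282), with 0.19 and 0.29 from its other probes. In GRANTA519 the NOP56 difference was 0.65 at 2 h and -0.36 at 24 h. DKC1, the pseudouridine synthase of the H/ACA particle and also a telomerase component, fell by 0.37 ± 0.09 (adjusted p = 0.00698) with lower signal in 20 of 20 pairs, and its arms did not overlap in any of the 4 lines. NHP2, the third of these proteins, gave -0.13 ± 0.14 (adjusted p = 0.223), with -0.16 to -0.17 from its other probes. The nucleolar scaffold proteins NCL (nucleolin, -0.09 ± 0.13) and NOLC1 (-0.18 ± 0.16), which shuttles between nucleolus and cytoplasm, did not pass.

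Of 13 measured small subunit factors, 5 fell and 0 rose (14.4% and 14.5% of all genes), with a median of -0.19. Beside NOB1 these were UTP15, a subunit of the early complex that binds the nascent precursor (-0.47 ± 0.23, adjusted p = 0.0125), BYSL (bystin, -0.44 ± 0.27, adjusted p = 0.0223), TSR1, a late-acting cytoplasmic factor (-0.31 ± 0.22, adjusted p = 0.0435), and NOP14 (-0.21 ± 0.09, adjusted p = 0.0477). The NOP14 call was lost with median scaling, with the mean of its probes and without any 1 of the 4 lines (adjusted p up to 0.16). TSR1 gave -0.0037 in JEKO1 and -0.51 in GRANTA519. The other 8 measured factors did not pass. RRP12, an export factor, gave -0.19 ± 0.26, with -0.54 in GRANTA519 and 0.01 in both JEKO1 and REC1. NOC4L gave -0.19 ± 0.12, the RNA acetyltransferase NAT10 -0.16 ± 0.05, RCL1 -0.13 ± 0.09 and RRP9, a protein of the U3 particle, -0.04 ± 0.22. The U3-associated factors IMP3 and IMP4 gave 0.07 ± 0.07 and 0.04 ± 0.16. UTP20 (-0.08 ± 0.14) was detected on 1 OTX015 and 4 DMSO arrays, so its value lies near the background.

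Of 15 measured large subunit factors, 8 fell and 1 rose (14.4% and 14.5% of all genes), with a median of -0.30. Beside PPAN, RRS1 and NOP16, MRTO4, which holds the place of the ribosomal stalk during assembly, fell by 0.57 ± 0.15 (adjusted p = 0.00278) and NIP7 by 0.47 ± 0.19 (adjusted p = 0.0082). The PeBoW complex, which matures the large subunit RNAs, was split: WDR12 fell by 0.32 ± 0.10 (adjusted p = 0.0135) and PES1 by 0.22 ± 0.07 (adjusted p = 0.0343), while the third subunit, BOP1, gave 0.11 ± 0.15 (95% interval -0.07 to 0.29, adjusted p = 0.340). MAK16 fell by 0.30 ± 0.19 (adjusted p = 0.0396). WDR74 rose by 0.26 ± 0.06 (1.19-fold, adjusted p = 0.0200), with higher signal in 18 of 20 pairs and a difference of -0.87 in the JEKO1 pair of 4 h. Its log2 signal ran from 7.02 over a median of 7.40 to 8.20 on OTX015 arrays, against 6.72, 7.05 and 8.30 on DMSO arrays. The arms of WDR74 overlapped in each line. URB2 gave -0.35 ± 0.28 and narrowly missed the threshold (adjusted p = 0.0533). The rest did not pass: the RNA methyltransferase NOP2 (-0.18 ± 0.12), NOC3L (-0.14 ± 0.21), NOC2L (-0.09 ± 0.25) and the GTPase GNL2 (-0.06 ± 0.05).

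All 3 regulators fell, against 14.4% of all genes. Beside PPRC1 these were LYAR, a nucleolar zinc finger protein (-0.39 ± 0.17, adjusted p = 0.0126), and DDX21, a helicase that works both on ribosomal RNA transcription and on its processing (-0.34 ± 0.13, adjusted p = 0.0145). Where a member had several probes they ran the same way for those that fell, WDR12 giving -0.32 and -0.31 and LYAR -0.39 and -0.33.

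The comparison at each time asked when the difference was present. Its p-values rest on a spread shared by the 5 times, which treats the repeated lines as independent. At 2 h, 10 members fell and 0 rose (4.84% and 4.96% of all genes). At 4 h, 14 fell and 0 rose (10.1% and 9.92% of all genes). At 8 h, 11 fell and 1 rose, IMP3 by 0.30 (10.7% and 11% of all genes). At 12 h, 9 fell and 0 rose (11.9% and 10.6% of all genes), and at 24 h, 17 fell and 0 rose (11.4% and 13.2% of all genes). The median change of the 41 was -0.20 at 2 h, -0.22 at 4 h, -0.23 at 8 h, -0.16 at 12 h and -0.36 at 24 h. The count of falls was above the share among all genes at each of the 5 times. It was smallest at 12 h, where the JEKO1 pair had a member median of 0.05, the only one of 20 pairs above 0.

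PPAN, RRS1, PPRC1, NOP16, NOB1 and MRTO4 fell at each of the 5 times, and DKC1, GAR1 and NIP7 at 4 of them. The share of all genes that fell at each of the 5 times was not counted, and is at most the 4.84% of 2 h. RRS1 changed by -1.27 at 2 h and -0.82 at 24 h, and PPAN by -1.10 and -0.70. GAR1 ran the other way, with -0.34 at 2 h and -0.93 at 24 h. A test of the change at 24 h minus that at 2 h found 2 members lower, GAR1 (-0.59, adjusted p = 0.0121) and LYAR (-0.51, adjusted p = 0.0434), and 0 higher, against 5.67% lower and 5.79% higher among all genes. The myeloid markers CD14 (-0.70, adjusted p = 0.0487) and ITGAM (-0.95, adjusted p = 0.0473), 2 of 4 measured, were also lower in this test, and their part in it was not tested. The 24 h arrays gave the lowest value of the 5 times for 21 of the 41 members and the 2 h arrays for 5. Leaving out 1 line moved several of these counts: at 2 h to 4 without GRANTA519, 4 without MAVER1 and 5 without REC1, at 4 h to 9 and at 12 h to 5 without MAVER1, and at 8 h to 7 without MAVER1 or without REC1. Without GRANTA519 or REC1, 0 members differed between 24 h and 2 h, without MAVER1 1 did and without JEKO1 4.

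**Figure D3:**
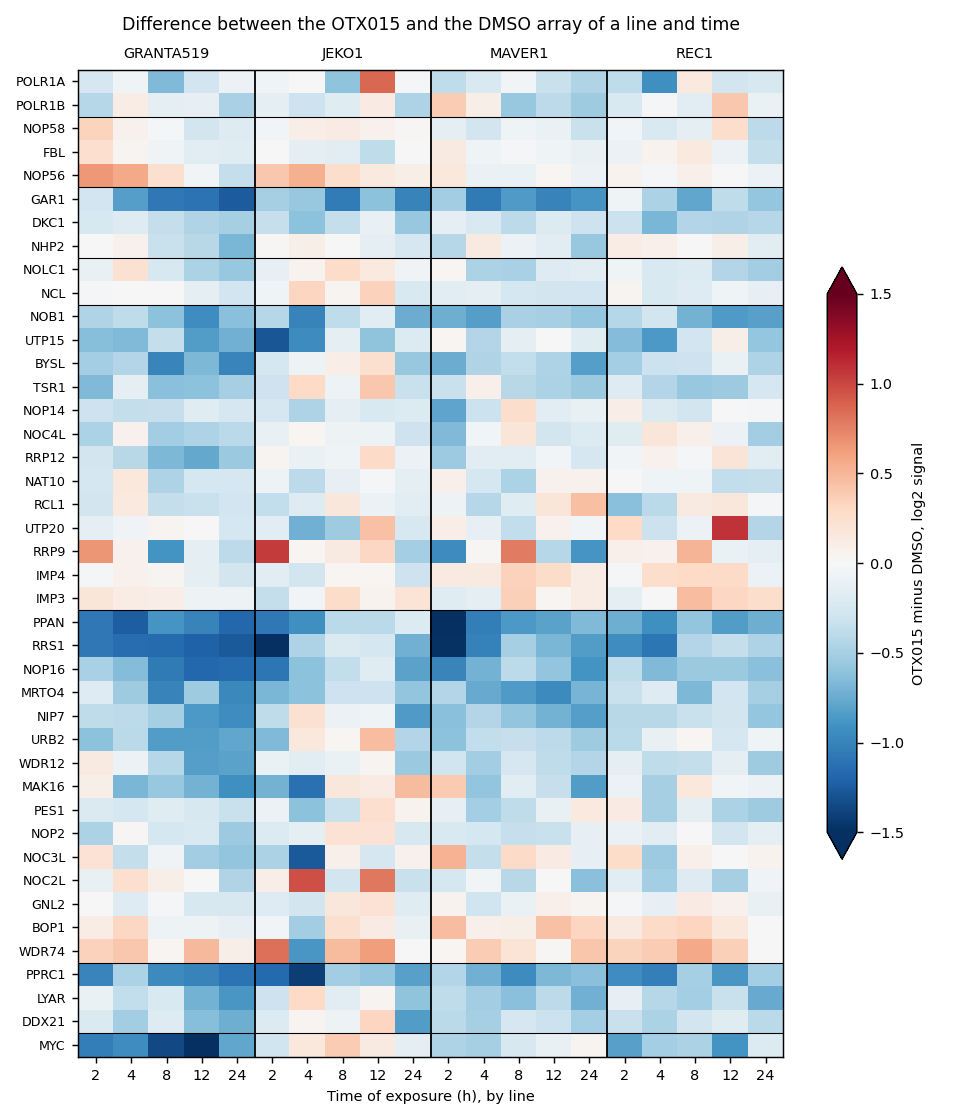
Difference within each of the 20 pairs, OTX015 minus DMSO in log2 signal (colour, blue for lower with OTX015), for the 41 genes by role and for MYC in the bottom row. Columns run from 2 to 24 h within each line, and the colour scale ends at 1.5 in either direction. PPAN, RRS1, NOP16, GAR1 and PPRC1 are blue in all 20 columns, and MYC is blue in all 5 columns of GRANTA519 and REC1 and pale in JEKO1.

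The comparison by line asked whether the lines shared the response. GRANTA519 had 20 members that fell (12.4% of all genes fell there and 11.9% rose), MAVER1 had 15 (10.7% and 11.2%), REC1 had 13 (7.63% and 7.82%) and JEKO1 had 9 (13.5% and 10.7%), and 0 members rose in each line. In a single line the 5 times stand in for replicates, so these p-values reflect how times differ, not how cultures differ. The member medians were -0.29 in GRANTA519, -0.26 in MAVER1, -0.16 in REC1 and -0.14 in JEKO1. In REC1 CD3D, 1 of 2 measured T and NK cell markers, fell as well (-0.94, adjusted p = 0.000562), and in GRANTA519 ITGAM, 1 of 4 measured myeloid markers, did (-1.13, adjusted p = 0.000664). Their part in the member counts was not tested. In REC1 the count of members was 8 without the 24 h arrays and 7 without the 12 h arrays. DKC1, GAR1, NOB1, NOP16, PPAN, MRTO4, RRS1 and PPRC1 fell in each of the 4 lines, and the ninth call of JEKO1 was UTP15 (-0.63). The share of all genes that fell in each of the 4 lines was not counted, and is at most the 7.63% of REC1. At the other end, 21 members fell in none of the lines, among them NOP14 and PES1, which passed over all times. How many of all genes fell in none of the lines was not counted.

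Among the members called in each line, DKC1 changed by -0.46 in REC1, -0.40 in JEKO1, -0.35 in GRANTA519 and -0.26 in MAVER1. MRTO4 changed by -0.74 in MAVER1, -0.65 in GRANTA519, -0.50 in JEKO1 and -0.40 in REC1. The order of these line means differed between DKC1 and MRTO4, but for neither did the difference between lines pass the F test. Of the 5 members that fell in 3 lines, UTP15 missed the threshold in MAVER1 (-0.15, adjusted p = 0.535), and BYSL, TSR1, NIP7 and LYAR missed it in JEKO1. NIP7 changed by -0.64 in MAVER1, -0.61 in GRANTA519, -0.40 in REC1 and -0.23 in JEKO1 (adjusted p = 0.174 there). LYAR changed by -0.53 in MAVER1, -0.46 in GRANTA519, -0.43 in REC1 and -0.15 in JEKO1. WDR12, DDX21 and URB2 fell in GRANTA519 and MAVER1, and NOC4L, RRP12, NOP2 and MAK16 in GRANTA519 (-0.36, -0.54, -0.30 and -0.56, in that order). For NIP7 and LYAR the difference between lines did not pass the F test.

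Of the 41 members, 21 had their lowest line mean in GRANTA519 and 21 their highest in JEKO1. The difference between lines passed for 3 members by limma's F test, BYSL (adjusted p = 0.0213), RRP12 (adjusted p = 0.0225) and URB2 (adjusted p = 0.0451), against 9.71% of all genes. In the F test, too, the times of a line stand in for replicates, so its p-values do not reflect how cultures differ. BYSL differed by -0.72 in GRANTA519, -0.57 in MAVER1, -0.34 in REC1 and -0.11 in JEKO1. URB2 gave -0.69 in GRANTA519, -0.45 in MAVER1, -0.16 in REC1 and -0.09 in JEKO1. Without the 12 h arrays, without the 24 h arrays, and without GRANTA519 or REC1, 0 members passed this test, and without JEKO1 or MAVER1 1 did.

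The change of MYC itself differed between lines. Its log2 signal ran from 7.18 over a median of 10.59 to 11.85 on OTX015 arrays, against 8.22, 11.06 and 11.91 on DMSO arrays. The low values were those of GRANTA519 in both arms, and the arms overlapped in each line. The MYC difference in GRANTA519 was -1.03 at 2 h, -0.94 at 4 h, -1.35 at 8 h, -1.49 at 12 h and -0.78 at 24 h. In REC1 it was -0.82, -0.51, -0.47, -0.89 and -0.21 at the same times. In MAVER1 it was -0.46, -0.49, -0.25, -0.11 and 0.04, and in JEKO1 -0.30, 0.15, 0.38, 0.13 and -0.15. MYC was thus lower at every time in GRANTA519 and REC1, and on both sides of 0 in JEKO1.

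By line, MYC fell in GRANTA519 (-1.12, 95% interval -1.37 to -0.87, adjusted p = 1.07e-06) and in REC1 (-0.58, 95% interval -0.83 to -0.33, adjusted p = 0.00237). It did not pass in MAVER1 (-0.25, adjusted p = 0.15) or in JEKO1 (0.04, 95% interval -0.21 to 0.30, adjusted p = 0.848). The change differed between lines by the F test, with times in the place of replicates (adjusted p = 0.000931). Over all times MYC did not pass (-0.48 ± 0.50, adjusted p = 0.0863). A second, dimmer MYC probe gave -0.78 in GRANTA519, -0.67 in REC1, -0.18 in MAVER1 and 0.23 in JEKO1. Without JEKO1, MYC passed over the other 3 lines (-0.65, adjusted p = 0.0385).

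Set beside MYC, the member medians did not stand in the same order over the 4 lines, and the order was not tested. GRANTA519 had the largest fall of MYC, the largest number of member falls and the lowest member median. REC1, where MYC changed by -0.58, had a member median of -0.16, and MAVER1, where MYC changed by -0.25, one of -0.26. JEKO1, where MYC did not pass, had the fewest member falls, 9 (13.5% of all genes fell there). Its member median of -0.14 was the highest of the 4 lines. Among the 9 were PPRC1 by 0.90, GAR1 by 0.75 and RRS1 by 0.65. Over time, MYC gave -0.66 at 2 h and -0.28 at 24 h over the 4 lines. Neither passed the threshold (adjusted p = 0.110 and 0.472), and the member median was -0.20 at 2 h and -0.36 at 24 h. The change at 24 h minus that at 2 h did not pass for MYC. It passed as lower for 2 of the 41 members (5.67% of all genes). With 4 lines no correlation between MYC and the members is given.

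**Figure D4:**
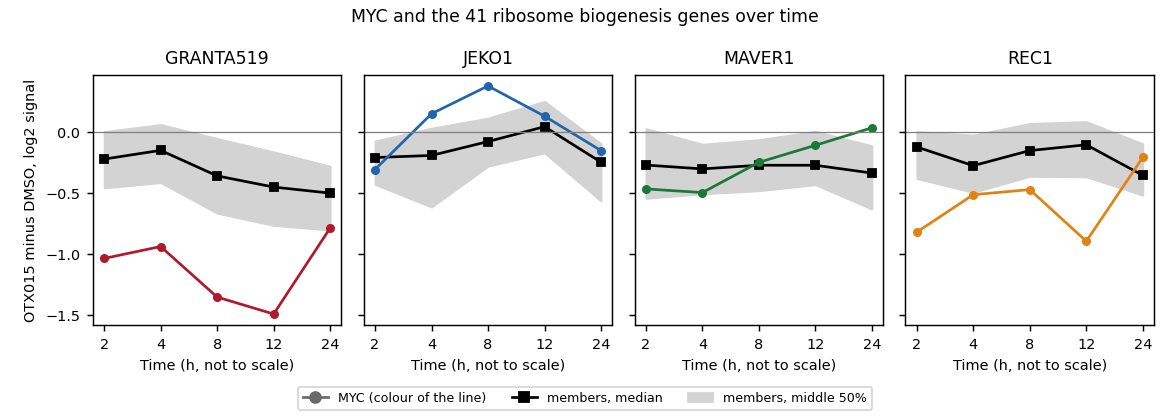
Difference OTX015 minus DMSO in log2 signal by time (h) in each of the 4 lines, for MYC (coloured line) and for the 41 genes (black median, grey band for the middle 50% of the genes). MYC lies below the band from 2 to 12 h in GRANTA519 and above the median from 4 to 24 h in JEKO1, while the median of the genes is below 0 in all pairs other than JEKO1 at 12 h.

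Other genes around MYC were tested in the same fit over all times. Of 10 measured MYC network genes, 3 rose and 0 fell (14.5% and 14.4% of all genes). MXD4 and MXD1, which compete with MYC for MAX, rose by 1.03 ± 0.21 (adjusted p = 0.000903) and 0.996 ± 0.14 (adjusted p = 0.000679), each in all 4 lines. MAX rose by 0.29 ± 0.12 (adjusted p = 0.0198) on the probe used, and its other probes gave between -0.0012 and 0.13. Of 20 known MYC targets outside ribosome biogenesis, 5 fell and 1 rose (14.4% and 14.5% of all genes), with a median of -0.15. The largest of these falls were SLC19A1, the reduced folate carrier (-0.83 ± 0.30), NME1, a nucleoside diphosphate kinase (-0.45 ± 0.15), and CDK4, a cell cycle kinase (-0.35 ± 0.13). PPAT, of purine synthesis, rose by 0.27 ± 0.17. PPAT and MAX each kept their call in 7 of 12 alternatives, and CDK4 in 10.

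Further genes of the pathway were counted from lists of other factors, again over all times. Over all measured genes, 14.4% fell and 14.5% rose. Of 14 measured other RNA polymerase I genes 6 passed as lower and 0 as higher, with a median of -0.20. Among the 6 was TCOF1 (treacle), which was detected on 0 OTX015 and 6 DMSO arrays and so met the detection filter through DMSO arrays alone. The data set no bound on its fall. Without the filter, another TCOF1 probe, which the filter removes, had the highest mean and stood for the gene. That probe did not pass (adjusted p = 0.882). POLR1H, a small polymerase subunit, fell by 0.64 ± 0.18 and TAF1A, a subunit of the promoter selectivity factor, by 0.35 ± 0.12. Of 42 other small subunit factors 16 fell and 1 rose, with a median of -0.18. UTP25 fell by 0.76 ± 0.15, EMG1, an RNA methyltransferase, by 0.67 ± 0.23, and the helicase DDX47 by 0.60 ± 0.15, while the methyltransferase DIMT1 rose by 0.26 ± 0.04. Of 46 other large subunit factors 18 fell and 2 rose, with a median of -0.14. The helicase DDX54 fell by 0.84 ± 0.22, BRIX1 by 0.82 ± 0.30 and NOL12 by 0.69 ± 0.15, while RPF1 and NOP53 rose by 0.27 ± 0.13 and 0.24 ± 0.08. RPF1 kept its call in 9 of 12 alternatives and NOP53 in 7.

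The RNA exosome, which trims ribosomal RNA precursors, had 10 of 12 measured genes that fell and 0 that rose, with a median of -0.32. EXOSC9 fell by 0.60 ± 0.15, EXOSC7 by 0.49 ± 0.05 and EXOSC5 by 0.45 ± 0.19. Of 11 other snoRNP assembly genes 2 fell (NUFIP1 by 0.68 ± 0.17 and ZNHIT6 by 0.31 ± 0.15) and 1 rose (RPAP3 by 0.30 ± 0.10). Their median was -0.09, and 14.4% of all genes fell and 14.5% rose. Of 68 measured cytosolic ribosomal protein genes, 5 fell and 4 rose, smaller shares than the 14.4% and 14.5% of all genes. Their median was -0.0089. The largest falls were RPL36A (-0.68 ± 0.17), RPL29 (-0.64 ± 0.10) and RPS7 (-0.53 ± 0.13), and those that rose were RPS28 (0.31 ± 0.07), RPL13 (0.30 ± 0.14), RPS23 (0.23 ± 0.12) and RPL14 (0.21 ± 0.04). Over 12 alternatives RPS28 kept its call in 11, RPL13 in 8, and RPS23 and RPL14 in 6 each. Ribosomal protein genes have many processed copies in the genome that share their sequence, so single probes are uncertain.

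**Figure D5:**
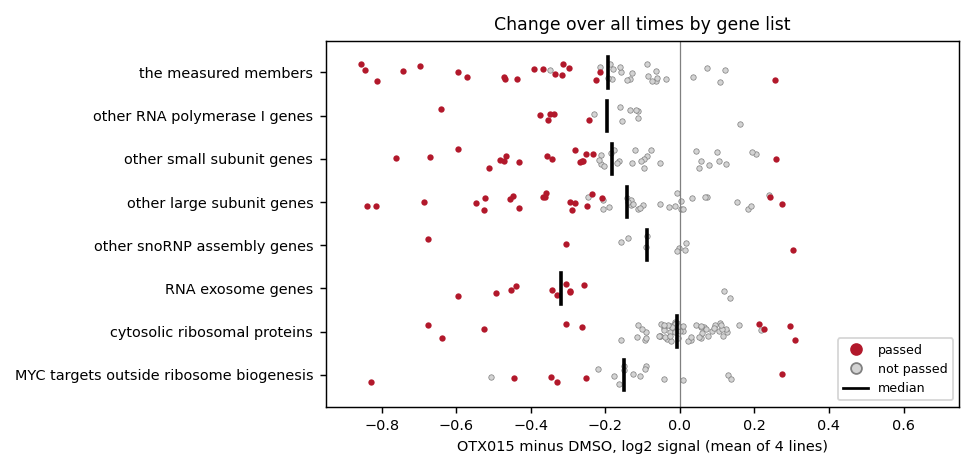
Change over all times (mean of 4 lines, OTX015 minus DMSO in log2 signal) of each measured gene of 8 lists, with red points past an adjusted p of 0.05, grey points not past it and the median as a bar. The bar of the cytosolic ribosomal proteins stands at -0.0089 and those of the other lists between -0.09 and -0.32. The heights of the points within a list carry no meaning.

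The DMSO arrays gave the starting level of each line. In DMSO, 37 of the 41 members differed between lines by the F test, against 73.4% of all genes. PPAN averaged 9.17 ± 0.30 in REC1, 8.36 ± 0.21 in JEKO1, 7.95 ± 0.11 in MAVER1 and 7.78 ± 0.10 in GRANTA519 (log2 signal, SD over 5 times). RRS1 averaged 9.25 ± 0.09 in MAVER1, 9.11 ± 0.05 in GRANTA519, 8.77 ± 0.12 in REC1 and 8.03 ± 0.13 in JEKO1, so the members did not share one order of the lines. MYC averaged 11.63 ± 0.18 in JEKO1, 11.16 ± 0.16 in MAVER1, 10.90 ± 0.19 in REC1 and 8.99 ± 0.51 in GRANTA519. GRANTA519, the line lowest in MYC, had the lowest DMSO mean of the 4 lines for 14 members and the highest for 7. REC1 had the lowest for 15 members and the highest for 7. For MAVER1 these counts were 6 and 9, and for JEKO1, the line highest in MYC, 6 and 18. Between 24 h and 2 h in DMSO 3 members fell and 0 rose, against 3.1% and 4.37% of all genes: RCL1 by 0.50, NIP7 by 0.38 and NOB1 by 0.35. For NOB1 and NIP7, the difference from DMSO at 24 h is thus set against a DMSO signal that was itself lower than at 2 h. Without GRANTA519 1 member passed this DMSO test, without JEKO1 2, and without MAVER1 or REC1 0.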

How the data were processed

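The assay was a 1-colour Illumina bead array. The authors deposited 1 non-normalized intensity per probe and array. Its export used GenomeStudio, per the submitters' processing notes. The authors also deposited a series matrix of log2 values, normalized in a way that no source used here states. Its 40 columns each correlated best with their own array (medians 6.706 to 6.707), and it served as an alternative. Total RNA was extracted with TRIzol and labelled with biotin, per the labels' protocols. Without control probes, the most frequent log2 signal of an array set its background level. limma 3.58.1 (R 4.3.3) then ran a normal-exponential correction, with an offset of 16, and quantile normalization, before the log2 step. A probe was detected where it exceeded the mode by 2.33 SD, and 27188 probes detected on at least 4 arrays were kept.

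Symbols came from the platform annotation (30113 probes with 1 symbol, 8 with several, the rest unnamed here), and 30074 were matched to RefSeq. The probe with the highest mean stood for its gene. Differences OTX015 minus DMSO of the same line and time were tested with lmFit and eBayes, two-sided, with Benjamini-Hochberg adjustment over 13740 genes at 0.05: over all times on 4 line means, at each time over 4 lines, in each line over 5 times, and between lines or times in a model with both. The tests at each time shared 1 estimate of the spread over the 5 times, without a term for line. Those in each line shared 1 over the 4 lines, without a term for time. Arrays of a pair share a line and deviated together (correlation 0.756 to 0.886 over 20 pairs). The number of arrays limits the precision, and nothing says that samples of a line came from separate cultures. The procedure was tested on simulated data.

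The members, lists, tests and naming rule were chosen with earlier results of these data known. All members are named; signals over the arrays are given for the 6 members with the largest changes past the threshold, the RNA polymerase I members and MYC, and each other list gives its 3 largest changes past the threshold and any in the opposite direction. Alternatives changed the background correction, normalization, detection filter, probe choice, pairing, lines and times.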

Additional observations from a re-analysis of the deposited data

Results flagged for a closer look

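Among 74 genes whose 4 line means were examined, 4 had 1 line far from the other 3; chance gives about 1 in 20. POLR1B gave -0.0215 in REC1, against -0.19 to -0.22 in the other lines. NOLC1 gave 0.0585 in JEKO1, where the other lines lay between -0.24 and -0.29. IMP3 gave 0.18 in REC1, above 0.02 to 0.05 elsewhere, and MXD1 1.20 in JEKO1, above 0.90 to 0.95.

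The change differed between the lines, by limma's F test, for MYC (adjusted p = 0.000931), BRIX1 (adjusted p = 0.0123), BYSL (adjusted p = 0.0213), RRP12 (adjusted p = 0.0225) and URB2 (adjusted p = 0.0451). Among all genes 9.71% passed this test, a larger share than among the named genes examined.

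The change at 24 h differed from that at 2 h for GAR1 (by -0.59), LYAR (by -0.51), NOL12 (by -0.44) and NOP53 (by 0.48) among assembly factors. Among ribosomal proteins it did so for RPL29 (by -0.95), RPL36A (by -0.83) and RPS7 (by -0.62). Around MYC it differed for MXD4 (by 1.74), MXD1 (by -0.64), SLC19A1 (by -0.86) and NME1 (by -0.64). Among all genes 5.67% were lower and 5.79% higher in this test.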

How the results depend on the processing

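Of the 18 members that fell over all times, 18 still fell without background correction and with the series matrix values, with a median size of 0.80 and 0.74 times that given here, and 17 with median scaling. PPAN, RRS1, PPRC1, GAR1, NOP16, NOB1, MRTO4, NIP7 and DKC1 kept their call in each paired alternative. Without the replicate block, which ignores that pairs share a line, members past the threshold numbered 0 over all times, 0 at 2 h, 0 at 4 h, 1 at 8 h, 0 at 12 h and 4 at 24 h, against 19, 10, 14, 12, 9 and 17 with it. Leaving out each line in turn gave 9 to 20 over all times, 4 to 7 at 2 h, 9 to 14 at 4 h, 7 to 12 at 8 h, 5 to 13 at 12 h, 0 to 1 that differed between lines, 0 to 4 between 24 h and 2 h, and 0 to 2 between 24 h and 2 h in DMSO, on fewer lines each. For members that differed between lines (3), the count was 7 without background correction, 7 with the series matrix, 1 with median scaling, 5 with probes detected on all 40 arrays, 0 without the 24 h arrays and 0 without the 12 h arrays, the last chosen after seeing the data. Between 24 h and 2 h it was 5, 5, 1 and 5 in place of 2 under the first 4 of these, and in DMSO 5, 5, 0 and 6 in place of 3. Median scaling gave 6 at 2 h. REC1 had 8 without the 24 h arrays and 7 without the 12 h arrays, in place of 13. TCOF1 gave 0.032 (adjusted p = 0.882) with no detection filter, where a probe that the filter removes stood for it. RPL13 gave -0.032 (adjusted p = 0.730) as the mean of its probes, so its other probes on average did not share the rise. Of the other values of single genes, 785 kept their side of the threshold, 74 lost and 21 gained the call. Among genes that did not pass, RRP9 (-0.12 to 0.07) and IMP4 (-0.02 to 0.09) lay on both sides of 0 over their alternatives.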
